A study of Drosophila melanogaster with 18 samples.

Results

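The E2f1 mutant effect was compared between 2 ages of the Drosophila melanogaster embryo. Loss of E2f1 was measured as mutants minus control on the log2 scale at 14 to 16 h of development and again at 8 to 10 h, and the difference between the ages, late minus early, was tested for every gene. The comparison used 8 of the 18 arrays of the study, 2 in each of 4 groups, and these 8 arrays were chosen by their labels. Mutants at 14 to 16 h carried the null alleles E2f17172/E2f191 and were picked by hand from a cross of stocks balanced over TM3[Kr-GFP], by the lack of fluorescence in the Bolwig's organs. The control at 14 to 16 h was the progeny of Arm-Gal4 crossed to yw. Mutants at 8 to 10 h had the same E2f17172/E2f191 genotype and cross but were taken by a COPAS SELECT automated sorter. The control at 8 to 10 h was again Arm-Gal4 crossed to yw, with no selection of embryos stated. Each sample held RNA of about 200 to 700 whole embryos from a 2 h collection aged at 25 °C. Stock, driver and the way embryos were selected differ between mutants and control, and the way of selection also differs between the mutant groups, so none of these can be told apart from genotype or age. In whole embryos, fewer cells of a type and less RNA per cell cannot be told apart either.

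E2F transcription factors bind DNA as dimers with Dp and drive the genes of DNA synthesis, while retinoblastoma-family proteins such as Rbf hold them in check. In the fly, E2f1 is the activating E2F and E2f2 a repressing one. Eggs are loaded with maternal cell cycle RNA and protein, and after the early divisions the embryo comes to depend on transcripts of its own. By the later of the ages studied most embryonic cells have stopped dividing, the nervous system being an exception, while the gut, muscle and epidermis differentiate.

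A signal below 47.5 (5.57 on the log2 scale) was set to that floor, so a difference against arrays at the floor is a minimum. Across the 18 arrays the deposited medians ran from 209 to 248, and the correlation between the arrays of a group, taken across genes, ran from 0.894 to 0.951. The lowest of these belonged to the control at 8 to 10 h. A stage index was built from genes that moved between the control ages, with 0 as the mean of the control at 8 to 10 h and 1 as that of the control at 14 to 16 h. E2f1 mutants at 14 to 16 h scored 0.885 and 0.874, against 1.01 and 0.994 in the control. E2f1 mutants at 8 to 10 h scored 0.201 and 0.236, against -0.0517 and 0.0517 in the control. The mutant arrays thus lay 0.661 apart on average, where the control arrays lay 1 apart by definition. The genes of the index were picked for their change on these same control arrays, so a mutant span under 1 is partly built in. Mutants at 14 to 16 h replicate 1 had higher signals of eggshell transcripts than its partner: the chorion gene Cp15 had 7660 and 60.3 in mutants at 14 to 16 h, against 577 and 91.8 in the control. E2f1 itself had 594 and 448 in mutants at 14 to 16 h, against 592 and 593 in the control. At 8 to 10 h it had 326 and 811 in mutants, against 2654 and 1325 in the control. Its late minus early difference of 1.67 ± 0.76 did not pass (adjusted p = 0.268), and where the probe set lies relative to the lesions is not known here, so it does not check the genotype. The differences of E2f2 (0.49 ± 0.40, adjusted p = 0.573), Dp (0.36 ± 0.27, adjusted p = 0.536) and Rbf (0.83 ± 0.50, adjusted p = 0.424) did not pass either.

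**Figure D1:**
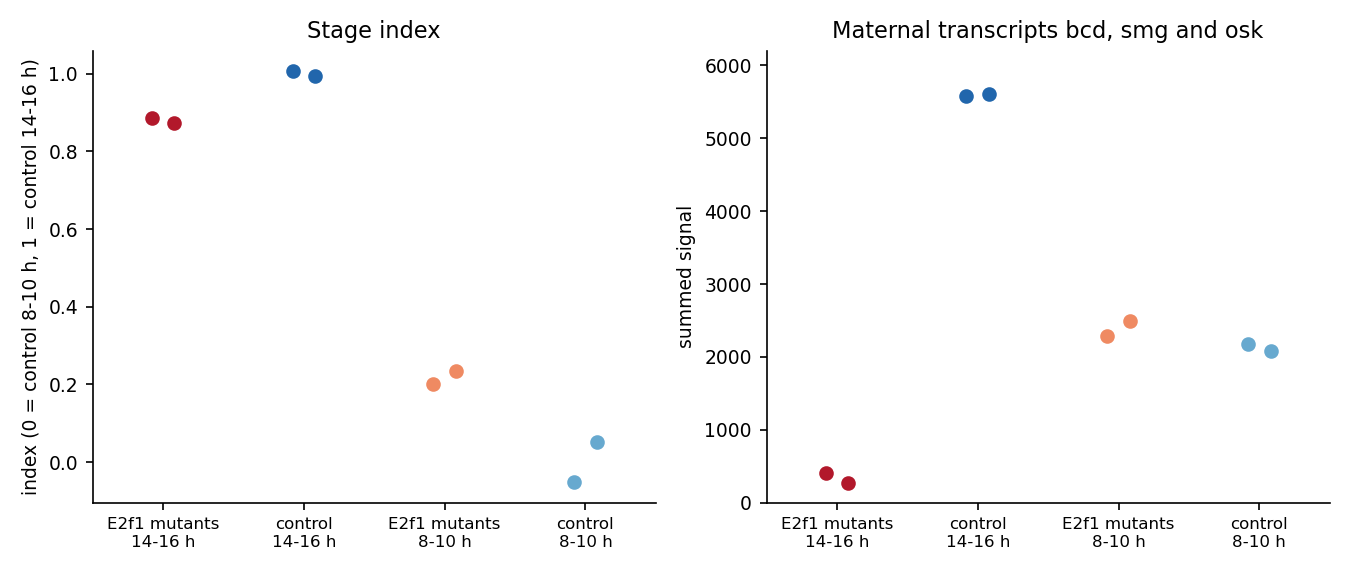
Stage index (left, no unit) and summed signal of the maternal transcripts bcd, smg and osk (right), with 1 point per array for E2f1 mutants and control at 14 to 16 h and then at 8 to 10 h. The index of mutants is 0.885 and 0.874 at 14 to 16 h and 0.201 and 0.236 at 8 to 10 h, and the maternal sum is 408 and 278 in mutants at 14 to 16 h, against 5578 and 5607 in the control of that age.

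Of 8976 genes and unnamed probe sets tested, 247 (2.75%) had a mutant effect that differed between the ages at an adjusted p under 0.05, and 211 of these were named genes. The effect was lower at 14 to 16 h in 164 of them (1.83% of all tested, median -2.34) and higher in 83 (0.925%, median 1.74), where the median over all genes was 0.04. Each of the 247 kept its sign in all 16 pairings of single arrays, as did 31.9% of all genes. That median of all genes moved to -0.07 with the deposited scaling and to 0.14 with array medians set equal, and with the last the calls split into 142 lower and 135 higher. Digestive enzymes of the midgut, a set of mitotic and chromosome genes and 3 maternal transcripts were among the lower genes. Genes of origin licensing and of the replication fork were among the higher ones. Leaving out 1 array moved the count of calls to between 114 and 539: it was 162 without mutants at 14 to 16 h replicate 1, 114 without control at 14 to 16 h replicate 1, 132 without mutants at 8 to 10 h replicate 1 and 539 without control at 8 to 10 h replicate 2. A fit of the 8 arrays alone called 138. With each control interpolated to the stage index of the mutant arrays, 381 genes passed, 304 lower and 77 higher, and 183 were shared with the 247. This setting scales the change of the control between the ages by 0.661, a span that the choice of index genes partly fixed. A gene that fell in the control thus gets a lower value by construction, and a gene that rose there a higher one.

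The called genes fell into classes by which of the single-age effects passed. At 14 to 16 h the mutant effect passed for 503 genes (5.6%), and at 8 to 10 h for 229 (2.55%). The effect passed at 14 to 16 h alone for 156 of the 247, of which 125 were lower and 31 higher. It passed at 8 to 10 h alone for 51, of which 20 were lower and 31 higher. Both effects passed with opposite signs for 7 genes and with the same sign for 2, and neither passed for 31. Among the 164 lower genes, transcript levels fell with age in 115 in the mutants and rose in 2, while in the control they rose in 81 and fell in 18. Among the 83 higher genes, levels fell in 26 and rose in 15 in the mutants, while in the control they fell in 75 and rose in 2. In all genes, 35.7% passed between the ages in the mutants (13.9% rose and 21.7% fell) and 43.2% in the control (17.6% rose and 25.6% fell). The counts of rises and falls share arrays with the difference that was called.

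**Figure D2:**
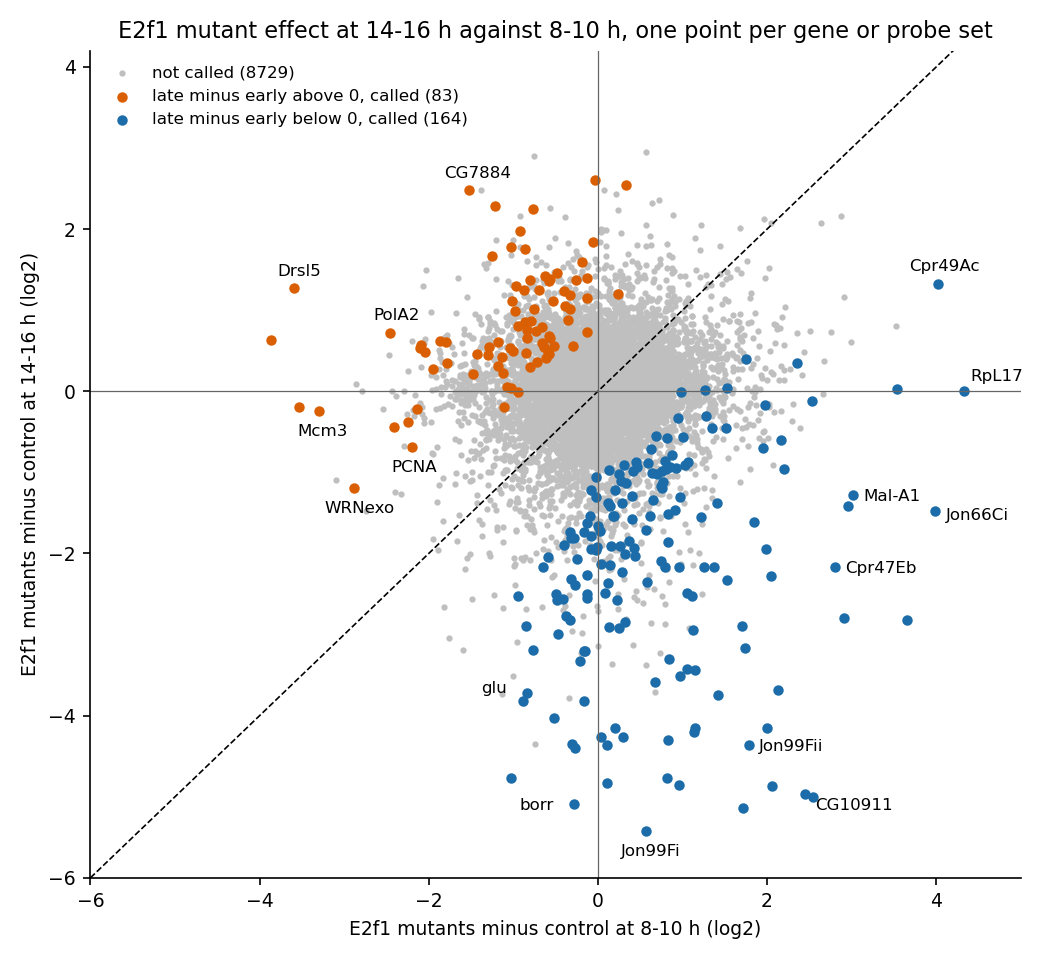
E2f1 mutant effect at 14 to 16 h (vertical, log2) against the effect at 8 to 10 h (horizontal, log2), 1 point per gene or probe set, with the dashed line where both are equal. The 164 lower genes lie below the line, 157 of them with a negative effect at 14 to 16 h, and the 83 higher genes lie above it, 81 of them with a negative effect at 8 to 10 h.

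The midgut digestion genes, which encode the trypsins, Jonah serine proteases, amylases, maltases and lysozymes of the gut, had the largest shift of any list between the ages. Of 33 measured members, 15 passed as lower (1.83% of all genes did) and 0 as higher, with a median of -2.60. At an unadjusted p under 0.05 there were 24 lower and 0 higher members (8.38% and 9% of all genes). At 14 to 16 h the median effect was -1.90 with 13 members lower (3.84% of all genes were). At 8 to 10 h it was 0.61 with 3 members higher (1.2% of all genes). Between the ages, 4 members rose and 9 fell in the mutants (13.9% and 21.7% of all genes), while 25 rose and 0 fell in the control (17.6% and 25.6%). Close copies of Jonah, trypsin and lysozyme genes can share labelled RNA on an array, so members of these families are not independent.

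Jon99Fii, a Jonah protease, had 445 and 397 in mutants at 14 to 16 h, against 9514 and 7862 in the control. The mutants of 8 to 10 h had 2995 and 4702, against 649 and 1836 in the control. The late mutants lay below control and the early ones above it, but the effect passed at 14 to 16 h alone. The difference of Jon99Fii was -6.15 ± 0.80 (adjusted p = 0.000722). Its neighbour Jon99Fi gave -5.99 ± 1.24 and Jon44E, another Jonah protease, -5.82 ± 1.06 (adjusted p = 0.0171 and 0.00785). Jon44E had 47.5 and 58.7 in mutants at 14 to 16 h, close to the floor, against 1432 and 1641 in the control. At 8 to 10 h its signals overlapped between the groups, with 262 and 375 in mutants against 63.6 and 408 in the control.

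The trypsin betaTry was low in every group but the late control: it had 143 and 119 in mutants at 14 to 16 h, against 5321 and 1173 in the control, and 137 and 140.1 in mutants at 8 to 10 h, against 122 and 149 in the control. Its difference was -4.29 ± 0.75 (adjusted p = 0.00625), and between the ages it moved by -0.09 in the mutants (adjusted p = 0.923) and by 4.21 in the control (adjusted p = 2.03e-05). The paralogue alphaTry had -5.14 ± 1.07 and epsilonTry -4.59 ± 1.05. Jon25Bi had -5.17 ± 1.15, Jon74E -3.41 ± 0.60 and Jon25Bii -2.47 ± 0.56. The lysozymes LysD, LysE and LysB, which break down bacterial cell walls in the gut, had -3.16, -2.58 and -2.16. For these 9 genes the effect passed at 14 to 16 h and not at 8 to 10 h.

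For 3 enzymes the effect passed at 8 to 10 h alone, where mutants were higher. Mal-A1, a maltase that splits sugars, had 439.7 and 231 in mutants at 14 to 16 h, against 953 and 624 in the control. Its mutant arrays of 8 to 10 h read 588 and 622, against 109 and 51.6 in the control, and the difference was -4.29 ± 0.67 (adjusted p = 0.00262). Jon66Ci was at the floor on both arrays of mutants at 14 to 16 h, against 133 and 132 in the control, and had 982 and 623 in mutants at 8 to 10 h, against 51.2 and 47.5 in the control. Jon65Aiv gave -4.37 ± 0.76 (adjusted p = 0.00597). The other 18 members did not pass, with values between -3.73 and 0.60, and 17 of them were negative.

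Some genes outside the list also passed as lower. CG10911 had the lowest value of all named genes, with 57.9 and 49.1 in mutants at 14 to 16 h, against 1916 and 1446 in the control. In the earlier embryos the signal was 559 and 756 in mutants, against 56.3 and 253 in the control, and the difference was -7.41 ± 0.99 (adjusted p = 0.000776). CG10910 (-6.93 ± 1.46), CG9877 (-5.59 ± 1.06) and the mucin gene Muc18B (-5.70 ± 1.23) also passed, as did the protease yip7 (-3.46 ± 0.88, adjusted p = 0.0481), the odorant-binding protein Obp56a (-2.77 ± 0.58), CG14340 (-4.33 ± 0.95) and CG7252 (-3.86 ± 0.95). Their single-age effects differed. The effect passed at 14 to 16 h alone for CG10911 and CG10910 and at 8 to 10 h alone for Obp56a. It passed at neither age for Muc18B, yip7, CG14340 and CG7252. The call of CG7252 was lost in 11 of 21 alternatives, the one without a floor among them. That of yip7 was lost in 12 of 22 and that of CG14340 in 7 of 21. Without control at 14 to 16 h replicate 1, 8 members of the midgut list passed, and without control at 8 to 10 h replicate 1, 9 did. The count was 15 with interpolated controls, and yip7 did not pass there (-2.54, adjusted p = 0.0694). The control at 8 to 10 h varied widely in some of these genes. Its replicate 2 was the higher array for Jon44E and Jon99Fi, but replicate 1 was the higher for Mal-A1 (109 and 51.6) and CG7252 (58.5 and 47.5). The stage index of these arrays was -0.0517 and 0.0517. The part of this spread in the result was not tested.

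**Figure D3:**
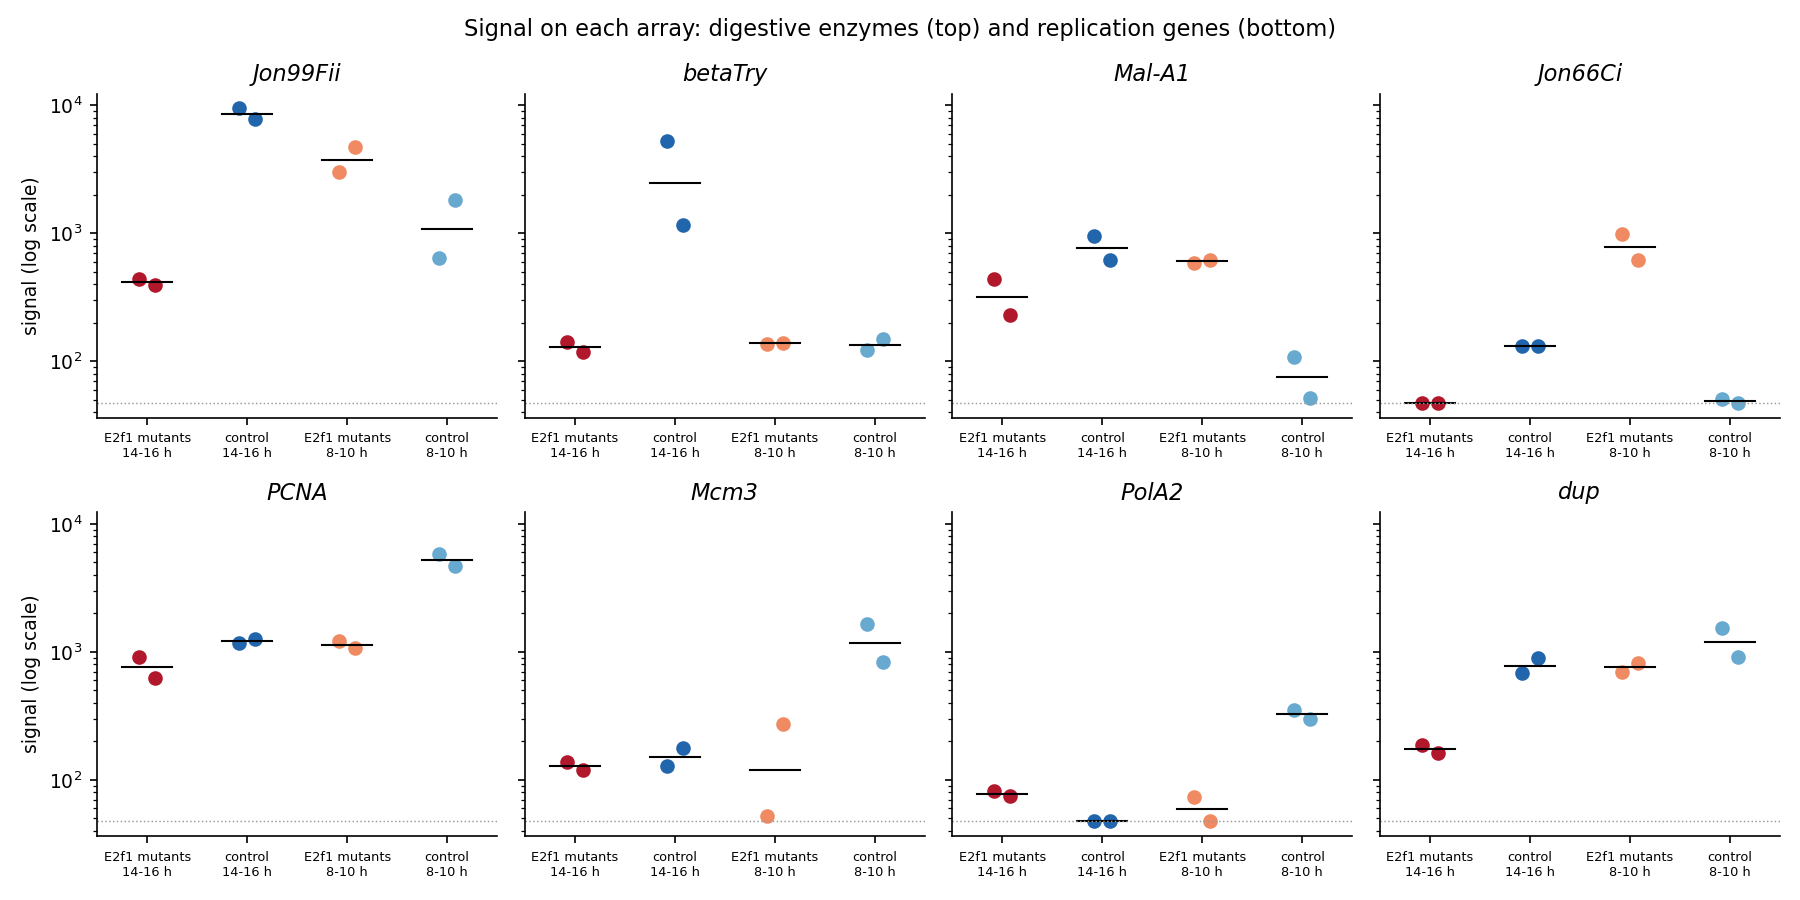
Signal on each array (log scale, arbitrary units) of 4 digestive enzymes (top) and 4 replication genes (bottom), with 2 arrays as points and the mean of their log2 values as a bar for each of the 4 groups, and a dotted line at the floor of 47.5. Jon99Fii is 445 and 397 in mutants at 14 to 16 h, against 9514 and 7862 in the control, while PCNA is 1218 and 1068 in mutants at 8 to 10 h, against 5775 and 4702 in the control.

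Part of the replication genes were lower in mutants at 8 to 10 h, and fewer were at 14 to 16 h. In origin licensing and firing, the step that loads the replicative helicase, 7 of 19 members were lower in mutants at 8 to 10 h (1.35% of all genes were) with a median of -1.34, and 3 were lower at 14 to 16 h (3.84% of all genes were) with a median of -0.24. In the replication fork list 5 of 18 were lower at 8 to 10 h with a median of -1.10, and 1 was lower at 14 to 16 h with a median of -0.14. The difference between the ages passed as higher for 2 members of each list and as lower for 1 of each (0.925% and 1.83% of all genes), with medians of 1.03 and 0.78. Between the ages, 11 members of the licensing list and 8 of the fork list fell in the mutants, and 13 and 14 in the control (21.7% and 25.6% of all genes). Of the 6 deoxynucleotide synthesis genes, 0 passed in limma, with a median of 1.23, and at an unadjusted p under 0.05 there were 4 higher and 1 lower (9% and 8.38% of all genes). In mutants at 8 to 10 h 3 of these 6 were lower (1.35% of all genes).

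PCNA, the sliding clamp of the replication fork, had 918 and 623 in mutants at 14 to 16 h, against 1179 and 1265 in the control. Its signal at 8 to 10 h was 1218 and 1068 in mutants, against 5775 and 4702 in the control. Both ages kept mutants below control without overlap, but the gap was wide at the early age (-2.19, adjusted p = 2.81e-05) and narrow at the late one (-0.69, adjusted p = 0.0505), so that the difference was 1.5 ± 0.28 (adjusted p = 0.00822). PolA2, a subunit of DNA polymerase alpha and primase, had 82.1 and 74.8 in mutants at 14 to 16 h, with the control at the floor on both arrays. At 8 to 10 h it had 73.3 and 47.5 in mutants, against 349.9 and 301 in the control, and the difference was 3.18 ± 0.63 (adjusted p = 0.0123). PolE4, a histone-fold subunit of DNA polymerase epsilon that is on neither list, gave 2.64 ± 0.61 (adjusted p = 0.0305), with both mutant arrays at the floor at 8 to 10 h.

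Mcm3, a subunit of the replicative helicase, had 138 and 119 in mutants at 14 to 16 h, against 129 and 177 in the control. The mutants of 8 to 10 h had 52.1 and 273, against 1655 and 836 in the control. Its difference of 3.06 ± 0.76 (adjusted p = 0.0416) rested on mutant arrays that were far apart, and it did not pass in 6 of the 8 fits that left out 1 array. The other helicase genes moved in the same direction without passing: dpa, which encodes Mcm4, had 1.26 ± 0.51 (adjusted p = 0.215), Mcm5 1.20 ± 0.49 (adjusted p = 0.221) and Mcm2 1.03 ± 0.43 (adjusted p = 0.223). Orc5, of the complex that marks origins, had 2.40 ± 0.53 (adjusted p = 0.0235), and Orc4, of the same complex, had 2.29 ± 0.67 (adjusted p = 0.0817). Orc4 was at the floor on all arrays of both groups at 14 to 16 h, so its value says nothing about that age.

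Further fork genes gave positive values without passing. PolE2, the second subunit of DNA polymerase epsilon, had 2.22 ± 0.66 (adjusted p = 0.0856), RPA2, of the single-strand binding complex, 1.64 ± 0.52 (adjusted p = 0.102) and Fen1, a flap nuclease, 1.69 ± 0.61 (adjusted p = 0.156). Among deoxynucleotide genes, RnrL, the large subunit of ribonucleotide reductase, had 1.49 ± 0.40 (adjusted p = 0.0593). Ts, thymidylate synthase, had 1.73 ± 0.56 (adjusted p = 0.109), and dnk, a deoxynucleoside kinase, 0.98 ± 0.30 (adjusted p = 0.0954). The dUTPase gene, whose product keeps uracil out of DNA, was negative instead, at -1.20 ± 0.33 (adjusted p = 0.0665): it had 244 and 165 in mutants at 14 to 16 h, against 892 and 804 in the control, and 1683 and 1575 in mutants at 8 to 10 h, against 3882 and 2316 in the control.

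The licensing factor dup, the fly Cdt1, also differed from its list. It had 188 and 161 in mutants at 14 to 16 h, against 681 and 897 in the control. In the earlier embryos the signal was 703 and 823 in mutants, against 1549 and 913 in the control. The late gap was the wider one, and the difference was -1.52 ± 0.34 (adjusted p = 0.0270). Top1, the topoisomerase that relieves twist ahead of the fork, was lower in mutants at 14 to 16 h and gave -1.95 ± 0.38 (adjusted p = 0.0109). WRNexo, an exonuclease related to the human Werner syndrome protein, was the 1 called gene whose effect passed as lower at both ages with the narrower gap later, at -1.19 for 14 to 16 h and -2.89 for 8 to 10 h (difference 1.69 ± 0.42, adjusted p = 0.0440). Its call was lost in 12 of 22 alternatives, the replicate block among them.

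Several calls of replication genes were lost under another treatment of the control. With controls interpolated to the stage index, PCNA had 0.79 (adjusted p = 0.0715), Orc5 1.61 (adjusted p = 0.0594) and Mcm3 2.05 (adjusted p = 0.0889), and these 3 did not pass, while PolA2 still did at 2.24 (adjusted p = 0.0273). The licensing list then had 0 higher members with a median of 0.10. Most members of both lists fell in the control, so this setting lowers their values by construction. Without control at 8 to 10 h replicate 2, the count of higher members was 4 in the licensing list and 5 in the fork list.

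A part of the mitotic genes was lower in mutants at 14 to 16 h. Of 33 members of the mitosis list, 14 were lower at that age and 1 was higher (3.84% and 1.76% of all genes), while at 8 to 10 h 0 passed in limma in either direction and 11 were lower at an unadjusted p under 0.05 (9.09% of all genes). The difference between the ages passed as lower for 8 and as higher for 1 (1.83% and 0.925% of all genes), and the median over the list was -0.23. Most of the list fell with age in both genotypes, in 26 members in the mutants (median -2.14) and in 25 in the control (median -1.28), as did 21.7% and 25.6% of all genes.

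The gene pim encodes the fly securin, which holds the protease separase in check until anaphase. It had 55.1 and 47.5 in mutants at 14 to 16 h, against 1173 and 996 in the control. Its signal at 8 to 10 h was 625 and 768 in mutants, against 867 and 809 in the control. The late mutants stood far below the other 3 groups, and the difference was -4.13 ± 0.34 (adjusted p = 1.59e-05). The gene borr, for a subunit of the chromosomal passenger complex, had 61.2 and 64.6 in mutants at 14 to 16 h, against 2350.2 and 1934 in the control. Its difference was -4.80 ± 0.47 (adjusted p = 5.28e-05) while a second probe set of borr gave 0.13.

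CycB, which drives entry into mitosis, had 2004 and 1245 in mutants at 14 to 16 h, against 8557 and 7189 in the control, and its difference was -2.0 ± 0.30 (adjusted p = 0.00219). CycB3, a related cyclin, gave -2.51 ± 0.36 and mad2, of the spindle checkpoint, -2.37 ± 0.35 (adjusted p = 0.00152 and 0.00199). The remaining lower members were twe, a Cdc25 phosphatase known for its role in meiosis (-3.11 ± 0.62), thr, the fly separase (-2.13 ± 0.44), and Klp61F, a spindle kinesin (-1.66 ± 0.36). Mps1, a checkpoint kinase, was the exception. It had 251 and 215 in mutants at 14 to 16 h, against 81.9 and 87.2 in the control, and 623 and 502 in mutants at 8 to 10 h, against 831 and 738 in the control, with a difference of 1.95 ± 0.36 (adjusted p = 0.00825), which was 0.86 with interpolated controls and did not pass (adjusted p = 0.137).

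Single chromosome and cell cycle genes of other lists were lower in mutants at 14 to 16 h, in lists of which few members passed. The gene glu, for a condensin subunit, had 88.6 and 75.7 in mutants at 14 to 16 h, against 1139.9 and 1025 in the control. At 8 to 10 h it had 866 and 1211 in mutants, against 2159.7 and 1554 in the control. It was lower in mutants at both ages with the wider gap later (-2.88 ± 0.30, adjusted p = 8.66e-05). It was the 1 of 15 members of the cohesin, condensin and chromatin assembly list to pass (1.83% of all genes passed as lower). The list median was -0.03 at 14 to 16 h and 0.32 for the difference. Caf1-55, a histone-binding protein shared by chromatin assembly and the dREAM repressor complex, gave -2.05 ± 0.31 (adjusted p = 0.00219). Skp2 and ago, F-box proteins that mark cell cycle regulators for destruction, were the 2 of 12 G1 and S regulators that passed (1.83% of all genes passed as lower), at -2.12 ± 0.43 and -1.55 ± 0.34. Nasp, a histone chaperone (-4.04 ± 0.39), and gwl, the Greatwall kinase that acts in mitosis (-3.66 ± 0.48), were chosen after their values were seen, as were twe, thr, Klp61F, LysD, LysE, LysB, Jon25Bii, epsilonTry, Mcm2 and the eggshell genes Cp15, Cp36, Vm26Aa and Vm34Ca.

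A few maternal transcripts were also low in mutants at 14 to 16 h. The gene bcd, whose RNA is laid down at the anterior pole of the egg, had 87.5 and 47.5 in mutants at 14 to 16 h, against 1265 and 1034 in the control. The mutants of 8 to 10 h had 548 and 604, against 510.5 and 489 in the control, and the difference was -4.35 ± 0.50 (adjusted p = 0.000251). Levels were thus highest in the late control and near the floor in the late mutants. The gene smg, which encodes a regulator of maternal RNA decay, had 121 and 183 in mutants at 14 to 16 h, against 4056 and 4396 in the control, and its difference was -4.94 ± 0.47 (adjusted p = 5.28e-05). The gene swa, needed to place bcd RNA, gave -3.16 ± 0.66 (adjusted p = 0.0175; a second, dim probe set gave -0.23), and plu, an inhibitor of replication in the egg, gave -2.27 ± 0.70 without passing (adjusted p = 0.0940). The genes bcd, smg and swa were the 3 lower members of 18 measured in the maternal and eggshell list (1.83% of all genes were lower). That list had a median of 0.23 for the difference and 0.53 at 14 to 16 h, with 10 members positive at that age. The eggshell genes Cp15, Cp36, Vm26Aa and Vm34Ca were positive there through replicate 1 of the mutants alone. Their replicate 2 lay below both control arrays, as in Vm34Ca, with 7621 and 640 in mutants against 1474 and 805 in the control. The 1 higher member of the list was bic, a subunit of the nascent polypeptide complex (1.45 ± 0.31, adjusted p = 0.0189). It had 0.96 without passing when controls were interpolated (adjusted p = 0.0502). The summed signal of bcd, smg and osk, the markers chosen for maternal RNA, was 408 and 278 in mutants at 14 to 16 h, against 5578 and 5607 in the control, and 2281 and 2491 in mutants at 8 to 10 h, against 2179 and 2080.0 in the control. Most of that sum was smg, and osk overlapped between the late groups, with 200.0 and 47.5 in mutants at 14 to 16 h, against 256 and 177 in the control (adjusted p = 0.368). The part of bcd and smg RNA in the result of the mitotic genes was not tested. No selection of embryos is stated for the late control, and whether undeveloped eggs in it hold this RNA was not tested. Hand picking of the late mutants and genotype cannot be told apart here.

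With controls interpolated to the stage index, pim had -4.0, borr -5.07, CycB -2.32, smg -4.44 and bcd -3.95, and all 5 passed. Most of the mitosis list fell in the control, and this setting lowers the values of such genes by construction. The count of lower mitosis members was then 13. It was 5 without control at 14 to 16 h replicate 1 and 5 in the fit of the 8 arrays alone.

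**Figure D4:**
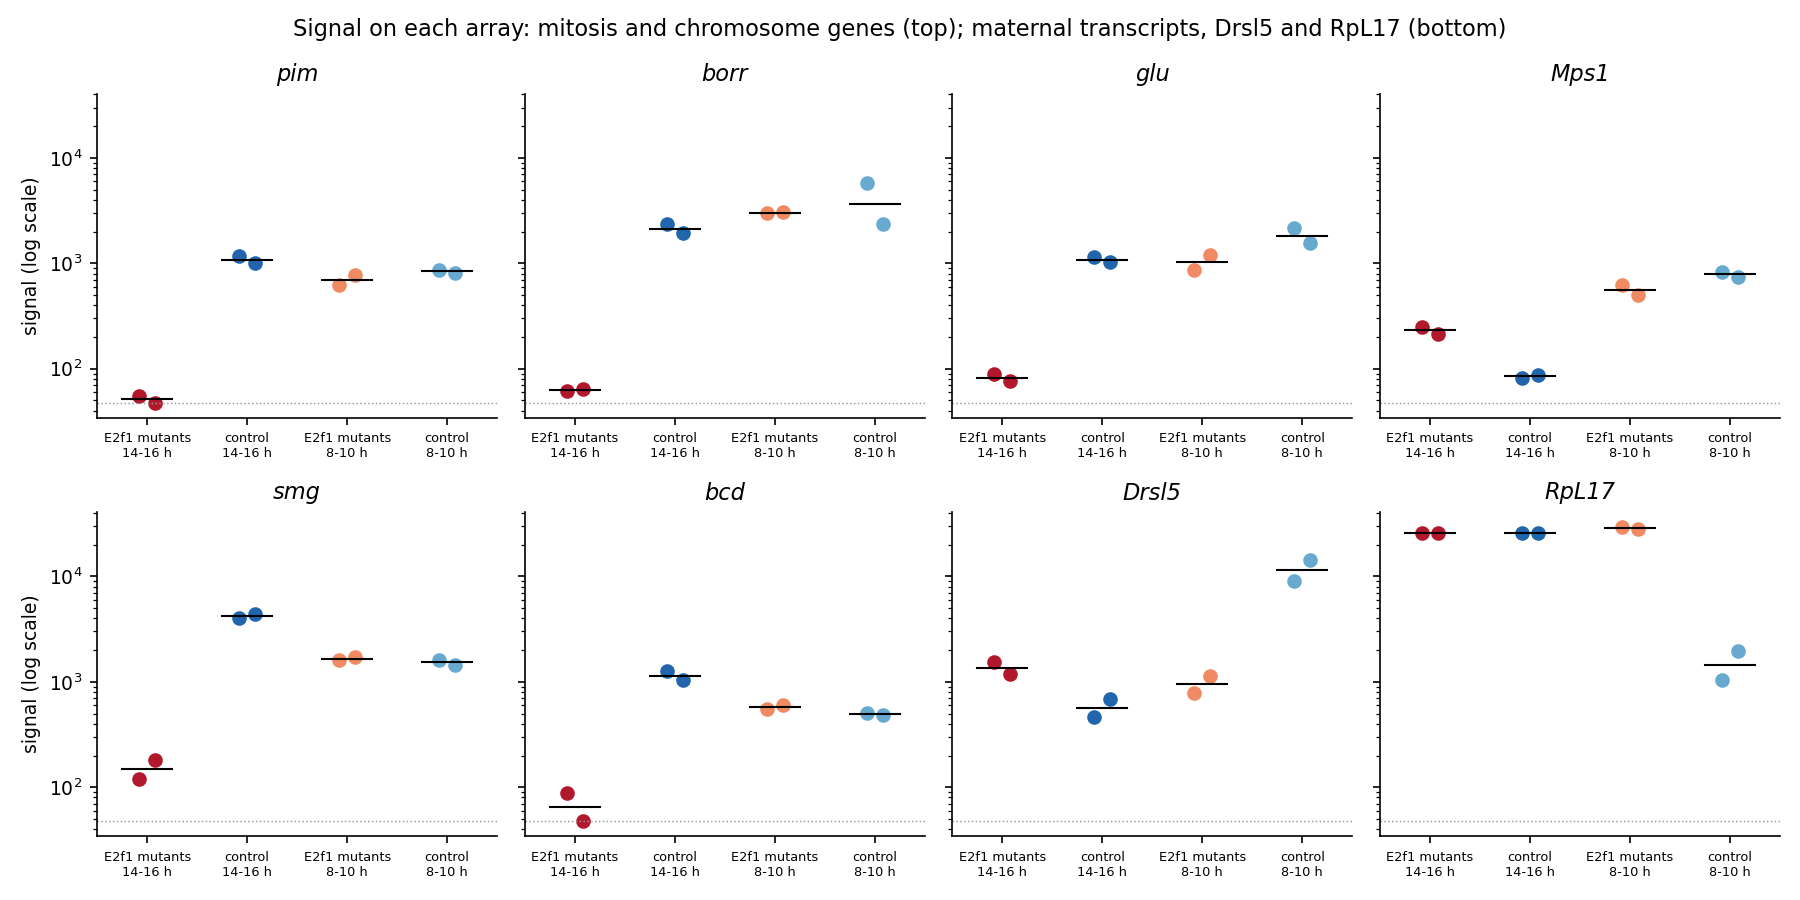
Signal on each array (log scale, arbitrary units) of the mitosis and chromosome genes pim, borr, glu and Mps1 (top) and of smg, bcd, Drsl5 and RpL17 (bottom) in the 4 groups, with points for arrays, bars for the mean of their log2 values and a dotted line at the floor. In pim, borr, glu, smg and bcd the mutants at 14 to 16 h lie far below the other groups, while in Drsl5 and RpL17 the control at 8 to 10 h stands apart.

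Of 14 heat shock and stress genes, 3 were lower and 0 higher (1.83% and 0.925% of all genes), with a median of -0.62 and 13 negative members. The chaperone gene Hsp68 was at the floor on both arrays of mutants at 14 to 16 h, against 877 and 872 in the control. In the earlier embryos the signal was 211 and 302 in mutants, against 177 and 74.0 in the control, and the difference was -5.34 ± 1.04 (adjusted p = 0.0115). Hsp27, a small heat shock protein, was higher in mutants at 8 to 10 h and gave -2.65 ± 0.43 (adjusted p = 0.00363), and ref(2)P, an autophagy receptor, gave -1.65 ± 0.42 (adjusted p = 0.0481). Of 13 immune genes, the antifungal peptide gene Drs (-2.78 ± 0.67) and the receptor gene Tl (-1.49 ± 0.31) were lower and Drsl5 was higher (1.83% and 0.925% of all genes), with a list median of -1.22.

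Drsl5, a gene of the drosomycin peptide family, had the largest positive value of all called genes and changed sign between the ages. It had 1556 and 1174 in mutants at 14 to 16 h, against 459 and 685 in the control. Its signal at 8 to 10 h was 781 and 1141 in mutants, against 8989 and 14442 in the control. The mutants were thus above control late and far below it early, and the difference was 4.86 ± 0.39 (adjusted p = 1.59e-05). The signal of the mutants themselves moved by 0.52 between the ages (adjusted p = 0.160), and that of the control by -4.34 (adjusted p = 3.94e-08).

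The other genes with opposite and passing effects were Cpr47Eb, Nup43, Aos1 and 3 probe sets without a single gene. Cpr47Eb, a cuticle protein gene, had 199 and 147 in mutants at 14 to 16 h, against 559 and 1054 in the control. At 8 to 10 h it had 222 and 588 in mutants, against 47.5 and 56.2 in the control, and the difference was -4.97 ± 0.79 (adjusted p = 0.00297). It and Cpr49Ac (-2.69 ± 0.65, adjusted p = 0.0359) were the 2 of 69 cuticle protein genes that passed, near the share of all genes (2.75%). Both were higher in mutants at 8 to 10 h. Nup43, a nuclear pore protein, gave 0.99 at 14 to 16 h and -0.98 at 8 to 10 h (difference 1.97 ± 0.35, adjusted p = 0.00656). Aos1, part of the enzyme that activates SUMO, gave 0.76 and -0.84 at the same ages (difference 1.60 ± 0.30, adjusted p = 0.00828). With interpolated controls Nup43 had 0.74, Aos1 0.71 and Cpr49Ac -1.93 (adjusted p = 0.180, 0.135 and 0.0609), none of which passed, and Nup43 and Aos1 did not pass in the fit of 8 arrays either.

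In 4 of 33 cytoplasmic ribosomal protein genes the effect was lower later (1.83% of all genes), and in these the control at 8 to 10 h was the lowest of the 4 groups. RpL17 had 25644 and 25918 in mutants at 14 to 16 h, against 25644 and 25918 in the control, equal values being equal ranks on their arrays after quantile normalization. The mutants of 8 to 10 h had 29542 and 27812, against 1042 and 1963 in the control. A transcript near the top of the scale in the mutants of both ages and the late control was thus low in that control, and the difference was -4.32 ± 1.03 (adjusted p = 0.0356). RpL28 (-1.80 ± 0.23), RpL37A (-2.15 ± 0.43) and RpL39 (-0.99 ± 0.23) also passed. With interpolated controls RpL17 had -2.91 and RpL39 -0.69, and neither passed (adjusted p = 0.0752 and 0.0594). The list as a whole had a median of -0.05. On the deposited scale RpL17 was 43025.5 and 40804.3 in mutants at 8 to 10 h, against 1065.6 and 1913.9 in the control, and it ran from 38.2 to 6885.9 on the 8 arrays of the 4 other groups that, like this control, came from Arm-Gal4 crosses at 8 to 10 h. RpL37A ran from 1982.9 to 7395.8 on those 8 arrays, against 7938.4 and 5829.3 in the control. RpL28 ran from 3047.8 to 14829.2 there and overlapped the E2f1 mutants at 8 to 10 h, which had 13398.8 and 15659.7, while RpL39 reached 8948.6 there, below the 18317.2 of the lower E2f1 mutant array. These probe sets are among the brightest, and the signal exceeded by the top 0.1% of probe sets also differed: it was 43283 and 46351 in mutants at 8 to 10 h, against 23604 and 26047 in the control. Its part in the result was not tested.

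Other higher genes included several that were low in the late control and not in the late mutants. CG17266 had 340.2 and 316 in mutants at 14 to 16 h, against 47.5 and 94.5 in the control, and 282 and 338 in mutants at 8 to 10 h, against 627 and 814 in the control. Mutants were the higher group late and the lower one early, and the difference was 3.5 ± 0.46 (adjusted p = 0.000733). Rrp46 and Ski6, subunits of the RNA exosome, gave 3.02 ± 0.50 and 2.62 ± 0.66 (adjusted p = 0.00434 and 0.0456). Rrp46 was at the floor on both arrays of the control at 14 to 16 h, against 245 and 208 in mutants. Su(Tpl), an elongation factor of RNA polymerase II (2.93 ± 0.49), PIG-C, of membrane anchor synthesis (2.81 ± 0.59), and CG7884 (4.01 ± 0.83) also passed. For these 6 genes the effect passed at 14 to 16 h and not at 8 to 10 h. The call of Ski6 was lost in 12 of 22 alternatives, the replicate block and interpolated controls among them (1.61, adjusted p = 0.127), and PIG-C had 1.71 with interpolated controls (adjusted p = 0.0674).

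CG13794 and CG31445 were lower in mutants at 8 to 10 h and about level later. CG13794 had 108 and 113 in mutants at 14 to 16 h, against 47.5 and 107 in the control. In the earlier embryos the signal was 47.5 and 158 in mutants, against 794 and 2023 in the control. The early control was the one group with a high signal, and the difference was 4.50 ± 0.80 (adjusted p = 0.00714). CG31445 gave 3.34 ± 0.59 (adjusted p = 0.00656) with the same order of groups.

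In the nervous system lists, insc, which orients neuroblast divisions, gave 1.95 ± 0.48 (adjusted p = 0.0419) and D, a Sox factor of neural progenitors, 1.78 ± 0.37 (adjusted p = 0.0171). They were 2 of 25 neuroblast and proneural genes (0.925% of all genes passed as higher), a list with a median of 0.50. In the control 20 of its members fell with age (25.6% of all genes). E(spl)malpha-BFM, of the Notch-responsive Enhancer of split complex, gave 1.64 ± 0.29 (adjusted p = 0.00715). The broadly expressed factor da, a partner of proneural proteins, gave 1.49 ± 0.36 (adjusted p = 0.0359). None of these 4 passed with interpolated controls, where E(spl)malpha-BFM had 0.09 (adjusted p = 0.903), da 0.81, insc 1.36 and D 1.04 (adjusted p = 0.157, 0.0781 and 0.0752). Of 64 mitochondrial ribosomal protein genes, mRpS31 (1.52 ± 0.27) and mRpL4 (2.48 ± 0.62) were higher (0.925% of all genes). The list median was 0.62 and 27 members were higher at an unadjusted p under 0.05 (9% of all genes). Between the ages, 18 of its members rose and 2 fell in the mutants (13.9% and 21.7% of all genes), while 0 rose and 16 fell in the control (17.6% and 25.6%). At 14 to 16 h 5 members were higher in mutants (1.76% of all genes). The respiratory chain gene COX4 (1.04 ± 0.22), the translation initiation factor eIF1 (1.08 ± 0.26), the Hsp90 co-chaperone p23 (1.71 ± 0.42) and the genes CG17666 (2.12 ± 0.51), CG11858 (1.75 ± 0.43) and CG11885 (1.66 ± 0.36) also passed as higher. With interpolated controls eIF1 (0.62), p23 (0.99) and CG11885 (1.02) did not pass (adjusted p = 0.139, 0.145 and 0.0777).

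Many gene groups gave no call for the difference between the ages. These were 23 of the 41 lists, with 359 measured entries in all and medians from -0.68 (glycolysis) to 1.23 (deoxynucleotide synthesis). A gene on several of these lists is counted once for each. They included the 17 contractile muscle genes (median -0.24), the 14 neuron and synapse genes (-0.31), the 20 haemocyte and basement membrane genes (-0.09), the 26 proteasome genes (0.44), the 27 segmentation genes (0.29) and the 10 apoptosis genes (-0.01). The contractile genes, for example, rose with age in 14 of 17 cases in the mutants and 16 of 17 in the control (13.9% and 17.6% of all genes). At an unadjusted p under 0.05, 38 of the 359 entries were higher and 26 lower, while 17.4% of all genes were under it in either direction. The lists were not alike in this: of the 26 proteasome genes, 9 were higher and 0 lower at that threshold (9% and 8.38% of all genes). A gene that did not pass was not shown to have the same effect at both ages.

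**Figure D5:**
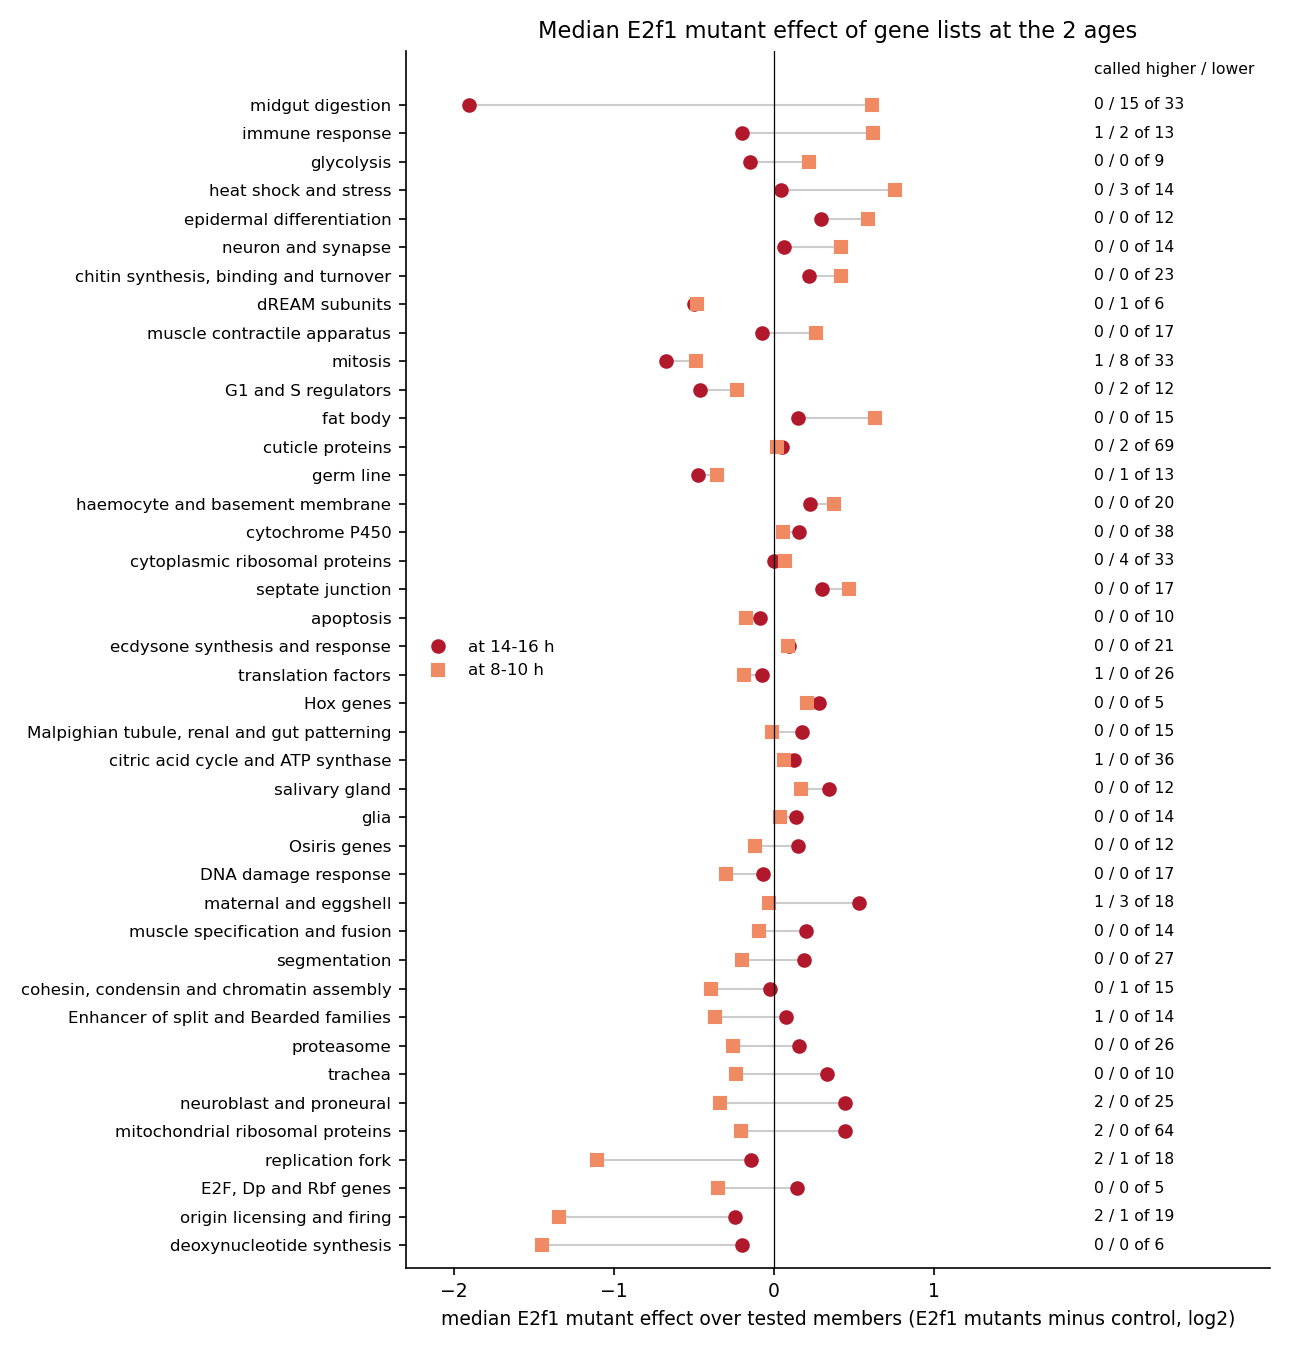
Median E2f1 mutant effect (log2, mutants minus control) at 14 to 16 h (circles) and at 8 to 10 h (squares) over the measured members of each of 41 lists, ordered by the median of late minus early, with the numbers of members called higher and lower at the right. Midgut digestion has the widest gap with the late value lower (-1.90 against 0.61), and deoxynucleotide synthesis, origin licensing and replication fork lie at the other end.

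Embryos without Dp, the partner of E2f1, were measured at 8 to 10 h (genotype Dpa2/Dpa4, sorted as the early E2f1 mutants were) and share their control with the E2f1 mutants of that age, so the values are given side by side without a test between them. In Dp mutants 359 genes passed (4.0%), 187 higher and 172 lower (1.92%). The midgut digestion list had 12 members higher in Dp mutants (2.08% of all genes) with a median of 1.78, beside 3 and 0.61 in E2f1 mutants of that age. Jon99Fii had 16532 and 5464 and betaTry 5193 and 2642 in Dp mutants. PCNA had 1828 and 2157 in Dp mutants, against 5775 and 4702 in the control (-1.39, adjusted p = 0.00166). RpL17 had 23456 and 27812 in Dp mutants, close to the E2f1 mutants and far above the shared control. The stage index of Dp mutants was 0.333 and 0.163.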

How the data were processed

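Per the labels' protocols, biotin-labelled RNA of whole embryos was hybridised to Affymetrix arrays, and the values used here are linear probe-set intensity as deposited. The authors scaled the arrays to a common trimmed mean (495 to 497 after the extreme 2% at each end were left out). The software that summarised probes is not given in the sources used here. Because the deposited medians spread over 0.244 log2 units, quantile normalization was applied. The 20th percentile of all values served as a floor, log2 was taken, and the dimmest 30% of probe sets by mean were not tested. The brightest probe set stood for each gene: 12443 of 13966 probe sets had 1 gene in the annotation, 327 several and 1196 none, and 8976 units were tested (7927 named).

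All 18 arrays in 9 groups were fitted with limma 3.58.1 (R 4.3.3, eBayes with trend, 9 residual and 6.16 prior degrees of freedom), and two-sided p-values were corrected over all units (Benjamini-Hochberg), with a threshold of 0.05. Errors are SE of log2 differences, with n = 2 per group. Nothing says that the arrays of a group came from separate cultures of flies, so p-values measure the spread between these samples, which may be technical, and the number of arrays limits the precision. On simulated data with 200 changed genes, 5.97% of those changed 2-fold, 50.7% changed 4-fold and 83.3% changed 16-fold were recovered, and 5 unchanged genes were called. The simulation had no floor, gave each gene the same mean in all groups and added the change to the late mutants only. Its rates therefore need not hold for the data. Replicate numbers gave no sign of pairing (correlations from -0.039 to 0.105). The stage index used the 300 genes that rose most and the 300 that fell most between the control ages, after some genes were left out. Left out were the replication, deoxynucleotide, G1 and S, mitosis, cohesin and condensin, E2F, dREAM and DNA damage lists. The midgut digestion list, both ribosomal protein lists and probe sets with a signal above 10000 on any array were left out too.

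The members and lists were chosen with earlier results of these data known. Of 1190 list entries, 19 matched no gene. Named genes are E2f1, E2f2, Dp and Rbf, the 12 largest called differences in each direction, up to 6 members of each described list by p, and the 5 largest in each direction of each class; others are said to be chosen after their values were seen. Alternatives were other scalings, floors, filters and variance models, a replicate block, a fit of the 8 arrays, a 2-fold minimum, interpolated controls, bright probe sets left out and each array left out. Sequences were not used here.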

Additional observations from a re-analysis of the deposited data

Results flagged for a closer look

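For the genes below, the difference between the ages was tested directly (the interaction in limma) and passed; each value is the log2 effect of E2f1 mutants minus control at 14 to 16 h less that at 8 to 10 h. Among digestive enzymes these were Jon99Fii (-6.15), Jon99Fi (-5.99), Jon44E (-5.82), Jon66Ci (-5.47), Jon25Bi (-5.17), Jon25Bii (-2.47), Jon65Aiv (-4.37), Jon74E (-3.41), alphaTry (-5.14), betaTry (-4.29), epsilonTry (-4.59), Mal-A1 (-4.29), LysB (-2.16), LysD (-3.16) and LysE (-2.58). Lower genes described beside that list were CG10911 (-7.41), CG10910 (-6.93), CG9877 (-5.59), Muc18B (-5.70), yip7 (-3.46), Obp56a (-2.77), CG14340 (-4.33) and CG7252 (-3.86). The effect was higher later for the replication genes PCNA (1.5), PolA2 (3.18), Orc5 (2.40), Mcm3 (3.06), PolE4 (2.64) and WRNexo (1.69), and lower later for dup (-1.52) and Top1 (-1.95). In mitosis and chromosome genes it was lower later for pim (-4.13), borr (-4.80), CycB (-2.0), CycB3 (-2.51), mad2 (-2.37), twe (-3.11), thr (-2.13), Klp61F (-1.66), glu (-2.88), Caf1-55 (-2.05), Skp2 (-2.12), ago (-1.55), Nasp (-4.04) and gwl (-3.66), and higher later for Mps1 (1.95). Maternal transcripts gave smg (-4.94), bcd (-4.35) and swa (-3.16), with the opposite sign for bic (1.45). Stress, defence, cuticle and ribosomal protein genes gave Hsp68 (-5.34), Hsp27 (-2.65), ref(2)P (-1.65), Drs (-2.78), Tl (-1.49), Cpr47Eb (-4.97), Cpr49Ac (-2.69), RpL17 (-4.32), RpL28 (-1.80), RpL37A (-2.15) and RpL39 (-0.99). The remaining higher genes were Drsl5 (4.86), CG13794 (4.50), CG7884 (4.01), CG17266 (3.5), CG31445 (3.34), Rrp46 (3.02), Su(Tpl) (2.93), PIG-C (2.81), Ski6 (2.62), mRpL4 (2.48), CG17666 (2.12), Nup43 (1.97), insc (1.95), D (1.78), CG11858 (1.75), p23 (1.71), CG11885 (1.66), E(spl)malpha-BFM (1.64), Aos1 (1.60), mRpS31 (1.52), da (1.49), eIF1 (1.08) and COX4 (1.04). Single arrays within a group could not be compared for outliers with 2 arrays per group. Mutants at 14 to 16 h replicate 1 differed from its partner in eggshell genes: Cp15 had 7660 against 60.3, Vm34Ca 7621 against 640.4, Vm26Aa 3788 against 667 and Cp36 3309 against 540.2. Without that array 162 genes passed.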

How the results depend on the processing

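The 247 calls became 138 in a fit of the 8 arrays alone and 381 with interpolated controls, of which 183 were shared with the 247, and ranged from 114 to 539 with 1 array left out. The 503 calls at 14 to 16 h became 278 in the fit of 8 arrays and ranged from 203 to 354 with 1 array left out, and the 229 at 8 to 10 h became 114 and ranged from 55 to 750. The other alternatives gave 168 to 285 calls for the difference between the ages, within 1.5 times of 247. Of the called genes that are named in the text, 84 in number, 0 changed sign under any alternative, 79 passed with the deposited scaling, 77 with array medians set equal, 63 with interpolated controls and 51 in the fit of 8 arrays, and 27 passed in every alternative run for them. With 1 array left out, 37 passed in all 8 fits. The replicate block gave 253 calls, 232 of them shared, with 165 lower and 88 higher. Named genes whose call was often lost included insc (13 of 22 alternatives), ref(2)P (12 of 22), RpL17 (10 of 21), Drs (9 of 21), Cpr49Ac (9 of 22) and PolE4 (7 of 21). With interpolated controls, the differences of 2 genes that had not passed turned negative: E2f2 had -0.0177 and Dp -0.20. Both genes fell with age in the control, and such genes get a lower value in this setting by construction. The 268 calls without the filter on dim probe sets held 180 of the 247, and 9 midgut members passed there. A fit without 1 array of a group takes the spread of the remaining array from the other groups. Signals near the floor of 47.5 limit what can be said of low genes, and no detection calls were used.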
